A study of Mus musculus with 15 samples.

Results

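Gas5, Snhg1, Snhg3, Snhg5, Snhg6, Snhg8, Snhg12, Snhg15 and Zfas1 are long noncoding genes whose introns carry small nucleolar RNAs (snoRNAs). These 9 genes were taken by symbol and matched to gene identifiers of the GENCODE M21 annotation. They are 9 of the 55536 annotated genes in the count table and 9 of the 346 annotated genes with a snoRNA inside an intron on their own strand. Together they hold 33 annotated snoRNAs, from 10 in Gas5 and 8 in Snhg1 to 1 each in Snhg6, Snhg8 and Snhg15. Their transcript models number between 3 (Snhg8) and 25 (Gas5).

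A snoRNA is usually cut out of the intron of a host transcript after splicing, trimmed by exonucleases and packed with core proteins into a snoRNP particle that guides chemical modification of ribosomal RNA. C/D box snoRNAs (Snord genes) guide 2'-O-methylation and H/ACA box snoRNAs (Snora genes) guide pseudouridylation. The spliced remainder of a noncoding host often carries short open reading frames that are translated and then targeted by nonsense-mediated decay, and many hosts, Gas5 first among them, begin with the pyrimidine tract that ties ribosomal protein mRNAs to growth signals. Gas5 itself was named for its accumulation in growth-arrested cells.

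The series asked how costimulation alters RNA processing in CD8+ T cells activated in vivo. In both groups, CD8+ T cells of OT-I Tg mice on a C57BL/6J background, whose transgenic receptor recognises an ovalbumin peptide, were placed in C57BL/6J recipients. Ag recipients received the peptide with a control rat antibody, and Ag+Costim recipients received the peptide with agonist antibodies against OX40 and 41BB, receptors of the tumor necrosis factor receptor family. Per the labels the cells were collected on day 4, whereas the methods give a somewhat shorter time, and donor cells were sorted from spleen and lymph nodes. The methods name mice of both sexes and several ages without tying them to libraries. The methods describe OT-I mice deficient in Rag1 or Rag2, without tying either to libraries. The transferred OT-I cells shared a single receptor specificity, so the libraries are not a model of a polyclonal response. The 5 Ag and 5 Ag+Costim libraries were compared, and the Naive group was not analysed here. Replicates within a group are biological replicates by the labels' numbering and the methods.

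Introns of Gas5, Zfas1, Snhg8, Snhg12 and Snhg5 are shown here in the sense of the host, 5′ to 3′, from a GENCODE M21 transcript that keeps each of them (mm10). Capitals mark an annotated snoRNA. They were picked because the splicing table gives their retention or, in Gas5, Zfas1 and Snhg8, by a rule on transcripts. That rule took the shortest snoRNA-bearing intron of the leading spliced transcript that a named retained intron transcript keeps whole. Gas5-218 keeps 6 snoRNAs and Zfas1-204 keeps 2, so the printed introns are only part of what they keep. The splicing table gives no retention for the introns picked by that rule. In Gas5 (plus strand, chr1:161035805-161035982, 178 bases), the intron spliced out of Gas5-224 and kept by Gas5-218 holds the 62 bases of Gm22489, an unnamed snoRNA gene. In Zfas1 (plus strand, chr2:167065218-167065433, 216 bases), the intron spliced out of Zfas1-205 and kept by Zfas1-204 holds Snord12. In Snhg8 (minus strand), 1 intron (chr3:123507863-123508111, 249 bases) holds Snora24 and the other (chr3:123507661-123507816, 156 bases) holds none, and Snhg8-202 keeps both.
Gas5 intron: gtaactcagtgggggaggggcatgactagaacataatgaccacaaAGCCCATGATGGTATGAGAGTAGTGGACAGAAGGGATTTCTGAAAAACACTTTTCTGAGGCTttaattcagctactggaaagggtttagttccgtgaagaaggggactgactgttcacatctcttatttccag
Zfas1 intron: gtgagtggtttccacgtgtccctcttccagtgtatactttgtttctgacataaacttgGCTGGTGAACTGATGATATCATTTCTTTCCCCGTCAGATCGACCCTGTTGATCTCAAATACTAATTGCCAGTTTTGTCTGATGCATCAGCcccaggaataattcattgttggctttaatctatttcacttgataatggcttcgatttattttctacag
Snhg8 intron with Snora24: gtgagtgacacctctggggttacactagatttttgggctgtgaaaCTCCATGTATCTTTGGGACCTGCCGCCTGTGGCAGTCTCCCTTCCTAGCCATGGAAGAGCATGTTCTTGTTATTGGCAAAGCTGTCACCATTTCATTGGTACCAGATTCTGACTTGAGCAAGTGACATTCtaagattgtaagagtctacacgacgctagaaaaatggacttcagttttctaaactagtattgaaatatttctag
Snhg8 intron without snoRNA: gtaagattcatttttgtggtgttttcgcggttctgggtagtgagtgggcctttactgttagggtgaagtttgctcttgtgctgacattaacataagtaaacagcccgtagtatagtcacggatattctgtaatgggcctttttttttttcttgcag

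The remaining 3 are the introns of Snhg12 and Snhg5 for which the deposited splicing table gives a retention value. Those of Snhg12 (plus strand) lie at chr4:132309904-132310150 (247 bases, Snora44) and chr4:132310216-132310450 (235 bases, Snora61). That of Snhg5 (minus strand, chr9:88522587-88522850, 264 bases) holds no snoRNA. All 7 introns begin with GT and end with AG, the usual splice site bases.
Snhg12 intron with Snora44: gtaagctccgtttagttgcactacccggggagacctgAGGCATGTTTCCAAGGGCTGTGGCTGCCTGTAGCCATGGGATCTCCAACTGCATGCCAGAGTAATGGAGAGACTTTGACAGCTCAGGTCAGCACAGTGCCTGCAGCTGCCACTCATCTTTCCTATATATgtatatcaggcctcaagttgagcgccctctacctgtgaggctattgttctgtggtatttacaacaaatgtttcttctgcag
Snhg12 intron with Snora61: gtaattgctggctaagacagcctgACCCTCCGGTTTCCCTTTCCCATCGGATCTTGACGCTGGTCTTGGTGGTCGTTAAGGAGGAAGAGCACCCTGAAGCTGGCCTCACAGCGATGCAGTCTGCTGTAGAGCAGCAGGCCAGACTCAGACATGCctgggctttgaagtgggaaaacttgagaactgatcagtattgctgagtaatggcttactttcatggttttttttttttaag
Snhg5 intron: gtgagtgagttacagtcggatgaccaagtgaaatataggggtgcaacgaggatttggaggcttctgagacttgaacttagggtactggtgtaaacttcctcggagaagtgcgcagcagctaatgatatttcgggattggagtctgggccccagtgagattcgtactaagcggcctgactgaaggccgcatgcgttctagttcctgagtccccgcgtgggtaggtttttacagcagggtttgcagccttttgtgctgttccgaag

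Ag libraries were uneven, which touches every comparison of the hosts. Total estimated counts ran from 59.6 to 449.4 M in Ag and from 332.3 to 639.1 M in Ag+Costim, and Ag 3 was the shallow library. Genes with a count numbered 48058, 51778 and 40441 in Ag 1, 3 and 4, and 21779 and 20714 in Ag 2 and 5. In Ag+Costim they numbered between 28727 and 30340. The shallow Ag 3 thus had the most genes with a count. The summed level of 10 genes of cycling cells, in CPM (counts scaled to a common library total with TMM factors), was 523.7, 4336, 2565, 564.1 and 4448 in Ag 1 to 5 and between 4139 and 4996 in Ag+Costim. Markers of CD8+ T cells were present throughout, between 2723 and 5264 CPM in Ag and between 3656 and 4436 CPM in Ag+Costim. Erythroid markers reached 1103 CPM and B cell markers 293.2 CPM in Ag 3, against at most 39.79 and 31.9 CPM in Ag+Costim. B cell markers were also at 111.9 and 140.5 CPM in Ag 1 and Ag 4. Myeloid markers went the other way, between 35.36 and 94.79 CPM in Ag and between 65.22 and 139.4 CPM in Ag+Costim, highest in Ag+Costim 3. Markers of CD4+ T cells and NK cells reached 16.27 and 16.41 CPM in Ag, and 5.771 and 2.164 CPM in Ag+Costim. No marker was at 0 in all libraries. The part of these differences in the results on the hosts was not tested.

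Gas5 was by far the most abundant of the 9 genes per unit of length. In TPM (transcript counts divided by length and scaled to a common total, computed here), Gas5 was at 414 ± 180 (Ag) and 299 ± 18.8 (Ag+Costim, SD, n = 5 each). In Ag+Costim libraries Snhg6 followed at 49.1 ± 3.69 TPM, with Snhg1 (41.0 ± 4.79), Snhg3 (40.8 ± 4.74), Zfas1 (37.8 ± 3.08), Snhg15 (35.7 ± 2.70), Snhg5 (32.2 ± 3.65) and Snhg8 (32.0 ± 2.33) close behind. Each neighbour among these 7 overlapped the next in its range over libraries, so the order of neighbours is not resolved. Genes further apart did not all overlap. The lowest Snhg6 library (45.2 TPM) lay above the highest of Zfas1 (43.1), Snhg15 (39.6), Snhg5 (36.3) and Snhg8 (35.1), the lowest of Snhg1 (37.4) above those of Snhg5 and Snhg8, and the lowest of Snhg3 (35.7) above that of Snhg8. Snhg12 was lowest at 5.60 ± 0.827 TPM, and its highest library (6.62) lay below the lowest of any other host (27.0). In Ag, Zfas1 stood second at 59.2 ± 22.9 TPM, with 87.0 and 80.2 TPM in Ag 1 and Ag 4 and between 38.7 and 50.9 TPM in the others. Gas5 showed the same split, with 601 and 617 TPM in Ag 1 and Ag 4 and between 240.1 and 307 TPM in the other Ag libraries. In CPM the split was less marked, so it depends in part on the unit. Gas5 was at 166 and 181 CPM in Ag 1 and Ag 4, and at 140.2, 78.3 and 155 CPM in Ag 2, 3 and 5. Zfas1 was at 31.0 and 30.2 CPM in Ag 1 and Ag 4, and at 29.9, 17.6 and 26.0 CPM in Ag 2, 3 and 5. Ag 1 and Ag 4 were the libraries lowest in cycling genes. In such bulk samples, fewer cells of a type and less RNA per cell cannot be told apart.

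No change in level between the groups was detected for any of the 9 hosts by the edgeR quasi-likelihood test, which called 0 of 24262 genes (0%) at a BH-adjusted p under 0.05. At an unadjusted p under 0.05 it gave 4501 genes, 1 of them a host. All 9 hosts passed the filter on low counts, and in all 9 the groups overlapped, whereas 5.6% of all genes tested had groups without overlap. The sign was positive for 6 of the 9 hosts with TMM factors and for 4 with total counts, so it has no common direction. The median log2 fold change was 0.182 over the hosts, -0.316 over all genes tested and 0.238 over genes with at least 10 CPM.

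Gas5 was at 166, 140.2, 78.3, 181 and 155 CPM in Ag 1 to 5 and at 148, 138, 119, 144 and 125 CPM in Ag+Costim 1 to 5. The Ag+Costim libraries lay inside the span of the Ag libraries, of which the shallow Ag 3 was lowest. The log2 fold change (Ag+Costim against Ag) was -0.10 ± 0.21 (SE, BH-adjusted p = 0.772). Zfas1, a host of Snord12 family snoRNAs, was at 31.0, 29.9, 17.6, 30.2 and 26.0 CPM in Ag and at 23.6, 20.2, 19.8, 22.1 and 20.4 CPM in Ag+Costim. Only Ag 3 lay below the Ag+Costim libraries, and the other 4 Ag libraries lay above them. Its log2 fold change was -0.34 ± 0.16 (SE, BH-adjusted p = 0.277).

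Snhg5, host of Snord50a and Snord50b, had the largest fold change of the 9. It was at 11.9, 23.5, 10.7, 11.6 and 18.2 CPM in Ag and at 23.2, 23.6, 18.6, 22.4 and 19.6 CPM in Ag+Costim. In Snhg5, 4 of the 5 Ag libraries lay below every Ag+Costim library and Ag 2 lay among them. The log2 fold change was 0.50 ± 0.23 (SE, BH-adjusted p = 0.269).

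Snhg1, Snhg3 and Snhg6 had a like spread over the Ag libraries, with Ag 2 and Ag 5 high. Snhg1, the host of 8 snoRNAs, was at 12.8, 17.9, 16.6, 9.57 and 25.8 CPM in Ag and between 18.2 and 23.5 CPM in Ag+Costim (log2 fold change 0.26 ± 0.24, SE). Snhg3, the host of the H/ACA snoRNAs Snora73a and Snora73b, was at 4.25, 12.8, 6.49, 5.84 and 19.0 CPM in Ag and between 10.3 and 13.9 CPM in Ag+Costim (0.30 ± 0.37, SE). Snhg6, the host of Snord87, was at 9.38, 18.3, 8.14, 10.3 and 20.7 CPM in Ag and between 14.3 and 18.0 CPM in Ag+Costim (0.24 ± 0.26, SE). In each of the 3 genes Ag 5 was above all Ag+Costim libraries and Ag 4 below them. The BH-adjusted p-values were 0.495, 0.617 and 0.571. Snhg3 overlaps Rcc1, a chromatin regulator gene on the same strand at 110 CPM (Ag) and 214 CPM (Ag+Costim), so reads of the pair can be hard to assign.

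For Snhg8, Snhg15 and Snhg12 the log2 fold change was close to or below its standard error. Snhg8 was at 10.1, 11.2, 6.27, 7.76 and 13.8 CPM in Ag and between 9.99 and 11.3 CPM in Ag+Costim (log2 fold change 0.10 ± 0.20, SE, BH-adjusted p = 0.767). Snhg15, the host of Snora9, was at 10.8, 13.7, 9.44, 9.14 and 13.0 CPM in Ag and between 11.4 and 14.4 CPM in Ag+Costim (0.18 ± 0.16, SE, BH-adjusted p = 0.475). The direction of Snhg8 and of Snhg15 turned with total-count scaling (-0.14 and -0.073), so neither has a settled sign. Snhg12, which carries 5 snoRNAs, was at 4.07, 2.23, 4.51, 2.41 and 2.48 CPM in Ag and between 2.65 and 3.37 CPM in Ag+Costim (-0.10 ± 0.28, SE, BH-adjusted p = 0.831).

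**Figure D1:**
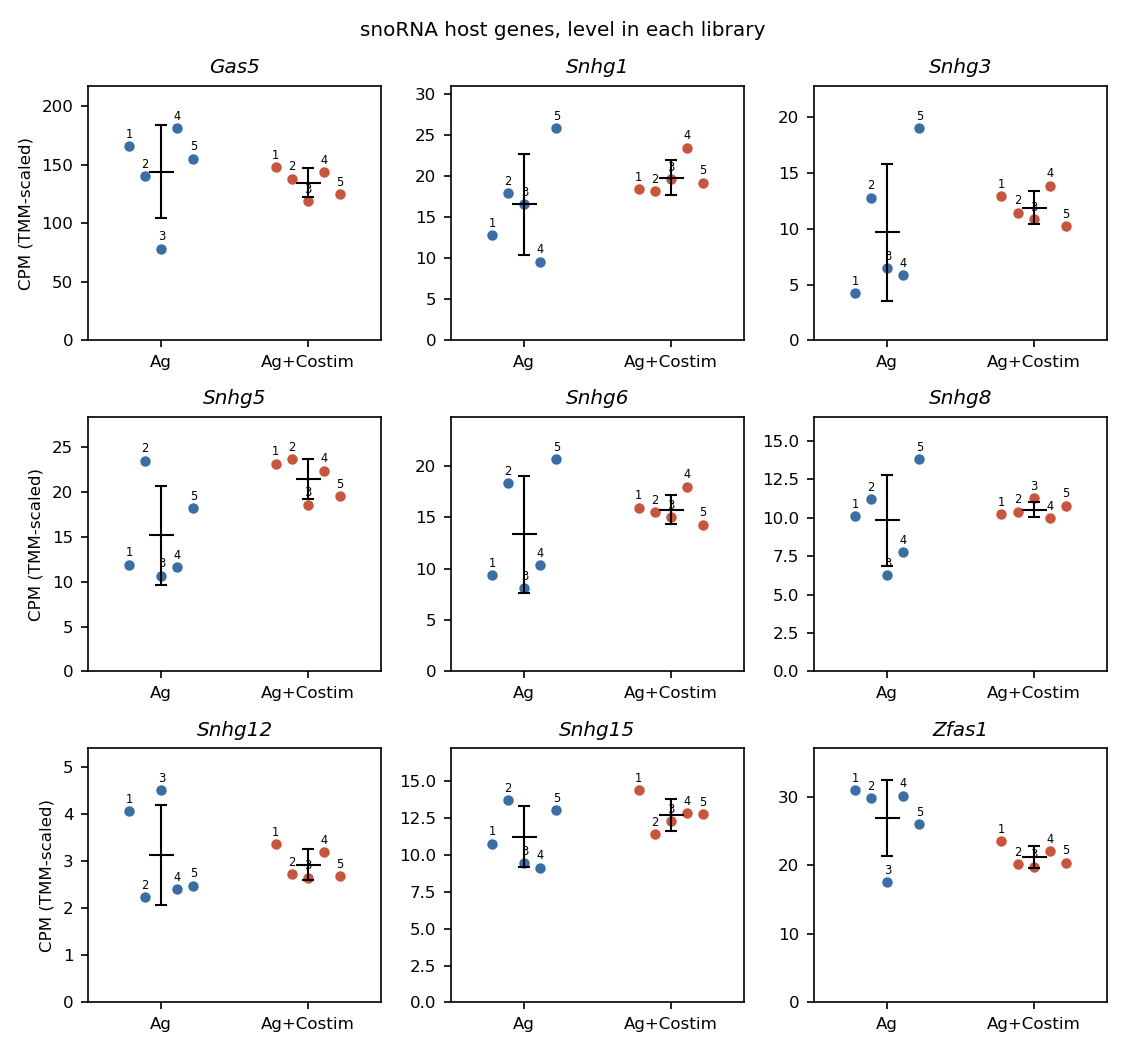
Level of each host gene in each library, in TMM-scaled CPM on linear axes from 0, with numbered points for libraries 1 to 5 of Ag (blue) and Ag+Costim (red) and black bars for mean and SD (n = 5). The groups overlap in all 9 genes, and the Ag libraries are more spread than the Ag+Costim libraries, as for Snhg3 between 4.25 and 19.0 CPM in Ag.

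Calls on the hosts depended on how the uneven Ag libraries were handled. DESeq2 called 0 of the 9 hosts, beside 14.3% of all genes it tested. The voom fit of limma, weighting libraries by quality, gave Ag 2 and Ag 5 weights of 0.0986 and 0.0656, and called 6 of the 9 hosts, beside 52.2% of all genes. Snhg1 (0.75), Snhg3 (1.13), Snhg5 (0.85), Snhg6 (0.62) and Snhg15 (0.35) were then higher in Ag+Costim on the log2 scale, and Zfas1 (-0.47) was lower. With Ag 2 and Ag 5 left out, edgeR called 6 hosts, beside 48.8% of all genes: Snhg1 (0.74), Snhg3 (1.23), Snhg5 (1.03), Snhg6 (0.88), Snhg8 (0.50) and Snhg15 (0.50) were higher. Beside such large shares of all genes, these calls do not mark the hosts out. Gas5 and Snhg12 were called in neither setting.

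**Figure D2:**
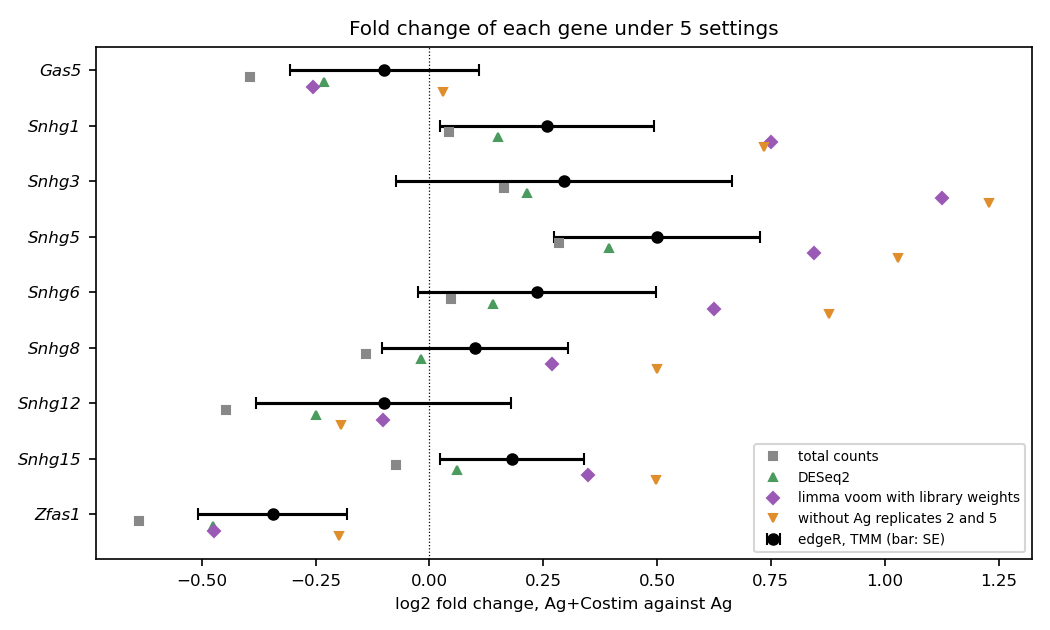
Log2 fold change (Ag+Costim against Ag) of each host gene with edgeR and TMM factors (black, bar for SE) and with total counts, DESeq2, limma voom with library weights, and edgeR without Ag 2 and Ag 5. Snhg1, Snhg3, Snhg5 and Snhg6 lie above 0 in all 5 settings and Zfas1 below 0, and Snhg8 lies on both sides (-0.14 with total counts and 0.50 without Ag 2 and Ag 5).

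Although no host passed the test of level, a larger share of their counts lay on transcripts that the annotation types as retained intron. Of the 9 genes, 5 have such transcripts, namely 20 of 25 in Gas5, 14 of 18 in Snhg1, 3 of 6 in Snhg5, 1 of 3 in Snhg8 and 4 of 5 in Zfas1. The share of the summed counts of all 9 hosts was 31.8, 38.3, 31.3, 28.7 and 31.7% in Ag and 44.8, 45.5, 35.5, 44.9 and 43.3% in Ag+Costim. Ag 2 was above Ag+Costim 3, and otherwise every Ag+Costim library was above every Ag library. The mean was 32.4 ± 3.53% (Ag) and 42.8 ± 4.16% (Ag+Costim, SD, n = 5 each), a difference of 10.5 points (two-sided exact permutation test over libraries, p = 0.0159). The smallest p the design allows is 0.00794. With each host given the same weight, the mean of the 5 hosts' own shares was 38.3 ± 2.91% and 46.3 ± 3.64% (exact permutation p = 0.0159). The difference was smaller, 3.99 points (40.0 and 43.95%, exact permutation p = 0.0317), as the mean of 7 hosts with retention taken from exon structure, of which 4 were higher in Ag+Costim.

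All other genes together did not share this direction. Their share of counts on retained intron transcripts was 3.83 ± 1.38% (Ag) and 2.82 ± 0.240% (Ag+Costim, SD, n = 5 each, two-sided exact permutation p = 0.183). It was 5.26 and 5.10% in Ag 1 and Ag 4, and between 2.17 and 3.88% in the other Ag libraries. The 337 other annotated snoRNA hosts were at 3.73 ± 0.972% in Ag against 2.74 ± 0.240% in Ag+Costim (exact permutation p = 0.0952). Gene by gene, 6020 of 6860 genes with a retained intron transcript and at least 10 counts in every library had a lower mean share in Ag+Costim and 832 had a higher one. All 5 hosts tested were among the 832, but for Snhg1 (0.622 points, exact permutation p = 0.921) and Snhg5 (2.445 points, p = 0.675) no difference was detected.

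Gas5, Zfas1 and Snhg8 had the largest differences in their own shares. Gas5 was at 36.5, 48.6, 36.7, 33.0 and 39.5% in Ag and at 55.3, 57.2, 44.6, 58.96 and 54.1% in Ag+Costim. Its mean was 38.9 ± 5.90% and 54.0 ± 5.58% (SD, n = 5 each, two-sided exact permutation p = 0.0159), and Ag 2 and Ag+Costim 3 were again the libraries that overlapped. Zfas1 was at 15.2, 34.3, 23.9, 13.0 and 27.0% in Ag and at 40.4, 29.6, 29.1, 40.0 and 41.4% in Ag+Costim. Its mean was 22.7 ± 8.70% and 36.1 ± 6.17% (exact permutation p = 0.0317), with Ag 2 above Ag+Costim 2 and 3. Snhg8 was at 19.7, 23.7, 17.1, 13.1 and 8.92% in Ag and at 28.1, 26.4, 18.5, 28.6 and 21.3% in Ag+Costim. Its mean was 16.5 ± 5.73% and 24.6 ± 4.47% (exact permutation p = 0.0476), with Ag 1 above Ag+Costim 3 and Ag 2 above Ag+Costim 3 and 5.

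These 3 of 5 hosts were higher in Ag+Costim at an exact permutation p under 0.05, beside 0.569% of the 6860 genes (39 genes, with 929 lower). Over all 6860 genes the lowest BH-adjusted p was 0.246, so none passed the adjustment, and the values for Gas5, Zfas1 and Snhg8 were 0.299, 0.337 and 0.337. In none of the 5 hosts were the groups apart, against 3.22% of all these genes. For Zfas1 the p exceeded 0.05 when Ag 1, 3 or 4 (0.0556) or Ag+Costim 1, 4 or 5 (0.0714) was left out. For Snhg8 it did so without Ag 3 (0.0635), Ag 4 or 5 (0.0873), Ag+Costim 2 (0.0873) or Ag+Costim 1 or 4 (0.0952). For Gas5 it stayed between 0.0159 and 0.0238 with each library left out in turn.

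In the remaining hosts no difference was detected. Snhg5 had most of its counts on retained intron transcripts in both groups, 73.6 ± 10.5% in Ag against 76.0 ± 6.998% in Ag+Costim (exact permutation p = 0.675). Snhg1 was at 40.0 ± 10.04% and 40.6 ± 3.69% (exact permutation p = 0.921), and both the Ag libraries with the highest (55.5%) and the lowest (29.2%) share lay outside the Ag+Costim range. For Snhg12 and Snhg6, which have no transcript typed as retained intron, exon structure was used instead, counting transcripts with an exon that spans an intron of another transcript of the gene, of which Snhg3 and Snhg15 have none. Snhg12 was then at 72.8 ± 18.1% in Ag against 65.3 ± 11.8% in Ag+Costim (exact permutation p = 0.452), and Snhg6 at 10.8 ± 4.50% and 9.26 ± 1.84% (exact permutation p = 0.492). Without Gas5, which holds most of the counts, the summed share of the others was still 5.96 points higher in Ag+Costim (exact permutation p = 0.0238, n = 5 each), a value chosen after seeing the data. A summed share also moves with the levels of the genes in it. Snhg5, whose own share was high in both groups, had 11.1 ± 3.94 CPM on retained intron transcripts in Ag and 16.4 ± 3.01 CPM in Ag+Costim (exact permutation p = 0.0635), the largest such difference after Gas5.

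**Figure D3:**
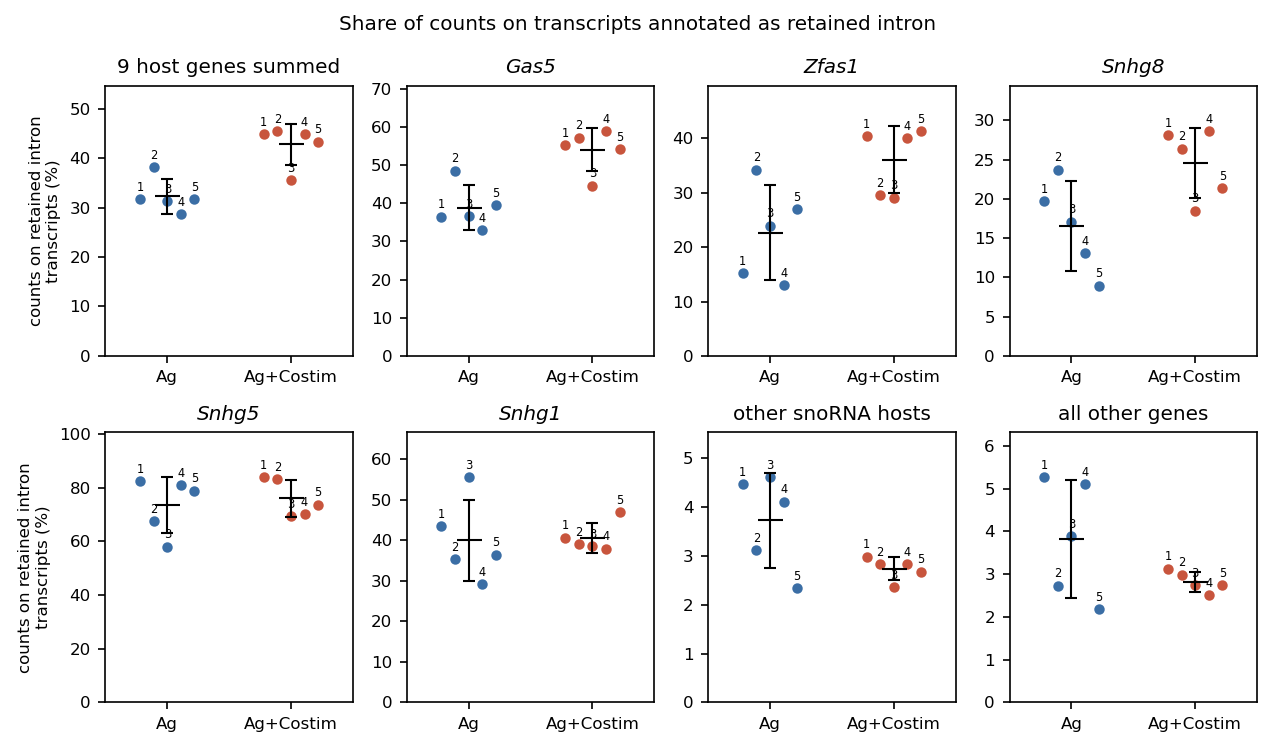
Share of estimated counts on transcripts annotated as retained intron, in percent, in each library (points numbered 1 to 5, Ag blue, Ag+Costim red, black bars for mean and SD). The 9 hosts summed go from a mean of 32.4% to 42.8%, Gas5, Zfas1 and Snhg8 have the largest differences in their own shares, and all other genes summed are at 3.83% and 2.82% (panels differ in scale).

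Many of these transcripts carry unexcised snoRNA sequence. Transcripts whose exons hold a whole annotated snoRNA took 20.6, 22.5, 22.9, 16.5 and 20.2% of the hosts' counts in Ag and 29.4, 31.8, 22.4, 29.8 and 28.5% in Ag+Costim. Ag+Costim 3 lay among the Ag libraries and the other 4 lay above them (means 20.5 ± 2.52% and 28.4 ± 3.57%, SD, n = 5 each, two-sided exact permutation p = 0.0238). Gas5 was at 22.03 ± 4.55% in Ag against 35.7 ± 5.19% (exact permutation p = 0.0159). In the 337 other annotated hosts the same measure was 2.68 ± 0.538% in Ag against 1.98 ± 0.152% in Ag+Costim (exact permutation p = 0.0159), which is the opposite direction as a sum. Host by host the measure had no common direction. It was higher in Ag+Costim in 3 of the 7 hosts with such transcripts (Gas5, Zfas1 and Snhg8) and lower in Snhg1 (-2.11 points), Snhg5 (-2.77), Snhg12 (-7.51) and Snhg15 (-1.05). The mean of the 7 hosts' own shares was 28.6 ± 3.995% in Ag against 31.3 ± 2.06% in Ag+Costim (exact permutation p = 0.206). Gene by gene over the 59 genes tested, 6 were higher (10.2%) and 2 lower in Ag+Costim at an exact permutation p under 0.05, and 3 of the 6 were Gas5, Zfas1 and Snhg8, so other genes had the same direction too. The lowest BH-adjusted p was 0.234. This measure was added after the data had been seen.

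Single transcripts show where the mean shares differed. In a usage test of each transcript (edgeR diffSpliceDGE), the lowest unadjusted p among those named in this paragraph was 0.139, for Gas5-218. Gas5-224, a fully spliced transcript of 12 exons and 502 bases, took 46.9 ± 6.15% of all Gas5 counts (Ag) against 34.6 ± 4.58% (Ag+Costim, SD, n = 5 each). Gas5-218, a transcript of 4 exons and 2556 bases that keeps 6 snoRNAs, including that of the Gas5 intron printed above, held 6.98 ± 1.40% and 13.1 ± 2.91%. The leading retained intron transcript, Gas5-213, which keeps no snoRNA, held 12.8 ± 1.58% and 13.3 ± 1.12%. The difference in Gas5 thus lay on transcripts other than its leading retained intron form. Zfas1-205, spliced into 5 exons, held 77.3 ± 8.70% and 63.9 ± 6.17%, and Zfas1-204, which keeps the Snord12 intron, 14.4 ± 5.37% and 24.2 ± 4.99%. Snhg8-201, spliced into 3 exons, held 80.4 ± 5.67% and 71.6 ± 4.50%, and Snhg8-202, a single exon through Snora24, 16.5 ± 5.73% and 24.6 ± 4.47%.

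In Snhg1 and Snhg5 the leading transcripts were close between groups. Snhg1-211, spliced into 10 exons, held 54.7 ± 11.6% in Ag against 52.7 ± 6.19% in Ag+Costim, and Snhg1-215, which keeps 7 of the 8 snoRNAs, 18.2 ± 7.48% and 16.3 ± 1.16%. Snhg5-206, a retained intron transcript that keeps no snoRNA, held 50.9 ± 14.0% and 56.1 ± 3.14%, and the fully spliced Snhg5-202 13.4 ± 6.26% and 10.8 ± 5.78%. In hosts without typed retained intron transcripts, the leading transcripts were Snhg3-204 (75.1 ± 10.1% and 66.5 ± 2.83%), Snhg6-203 (61.2 ± 7.43% and 59.2 ± 4.75%), Snhg15-204 (54.5 ± 4.26% and 59.4 ± 3.34%) and Snhg12-206 (26.9 ± 18.5% and 22.6 ± 12.8%). A test across all transcripts for changed usage (edgeR diffSpliceDGE, BH-adjusted p under 0.05 with a change of share over 0.1) called 0 of the 9 hosts and 29 of 10442 genes (0.278%). At an unadjusted p under 0.05 it gave 677 genes and 0 hosts, and limma diffSplice called 144 genes and 0 hosts. The lowest unadjusted p-values of the hosts in limma diffSplice were 0.017 for Zfas1 and 0.027 for Snhg1.

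The shares can be read as levels by splitting each gene's CPM. Gas5 counts outside retained intron transcripts were at 105, 72.1, 49.6, 121 and 93.9 CPM in Ag and at 66.0, 59.1, 65.8, 58.9 and 57.2 CPM in Ag+Costim. Among these, 4 Ag libraries were above all Ag+Costim libraries and the shallow Ag 3 below them (means 88.4 ± 28.1 and 61.4 ± 4.17 CPM, SD, n = 5 each, two-sided exact permutation p = 0.103). On retained intron transcripts Gas5 was at 55.7 ± 15.4 (Ag) and 73.2 ± 13.0 CPM (Ag+Costim, exact permutation p = 0.0873). For Zfas1 the difference lay on the other transcripts, at 20.9 ± 5.47 (Ag) and 13.5 ± 0.944 CPM (Ag+Costim, exact permutation p = 0.0317), while its retained intron transcripts were at 6.02 ± 2.65 and 7.71 ± 1.72 CPM (exact permutation p = 0.254). For Snhg8 it lay on the retained intron transcript, at 1.59 ± 0.711 and 2.57 ± 0.361 CPM (exact permutation p = 0.0317), while the others were at 8.23 ± 2.75 and 7.96 ± 0.854 CPM (exact permutation p = 0.849). Such p-values were computed for 5 hosts, 10 in all, and are not adjusted. The split was made with TMM scaling alone. From TMM to total counts, the log2 fold change of the whole gene moved from -0.10 to -0.39 for Gas5. It moved from -0.34 to -0.64 for Zfas1 and from 0.10 to -0.14 for Snhg8. Which part holds the difference is thus relative to the scaling.

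**Figure D4:**
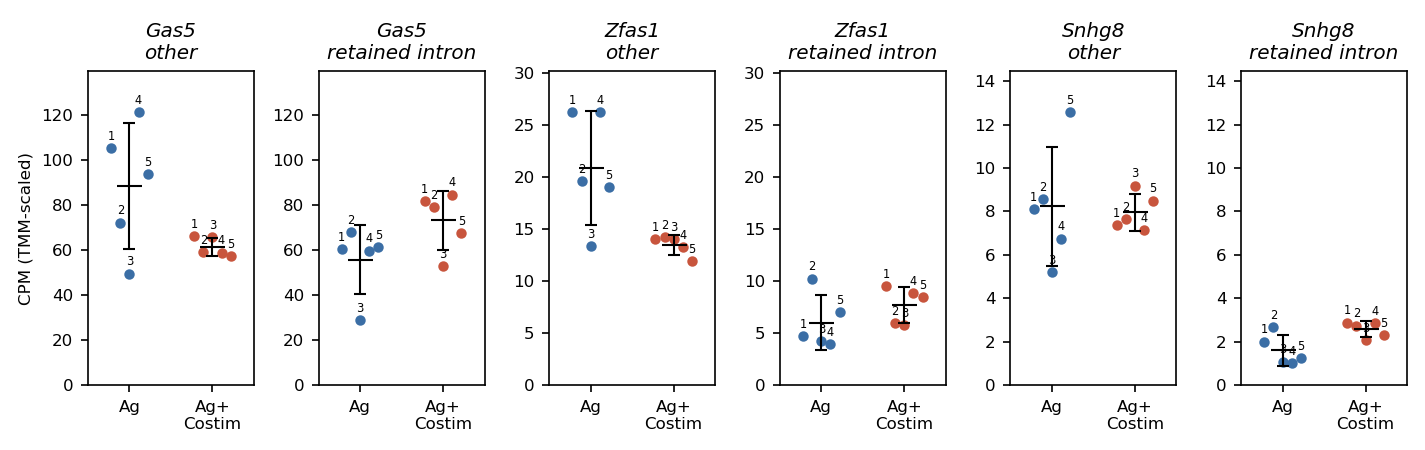
TMM-scaled CPM of Gas5, Zfas1 and Snhg8 split into counts on retained intron transcripts and on all others, in each library (points numbered 1 to 5, Ag blue, Ag+Costim red, black bars for mean and SD). Zfas1 counts outside retained intron transcripts are lower in Ag+Costim (20.9 against 13.5 CPM) and Snhg8 counts on the retained intron transcript are higher (1.59 against 2.57 CPM).

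The authors' percent spliced in (PSI), obtained with another tool from the reads, gives 1 fraction per group with the libraries already combined, so no test over libraries could be made. The table has 56 events in 7 of the hosts, from 17 in Gas5 to 3 in Zfas1, and none in Snhg3 and Snhg15. A difference over 0.05 in either direction was found in 7 of the 56 events, against 11.9% of all 138940 events in the table, which is near the same share. Of these 7, 4 were in Snhg12, 2 in Snhg5 and 1 in Snhg8, and none in Gas5, Zfas1, Snhg1 or Snhg6.

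Retained introns make up 4 of the 56 events, and 3 of the 4 differed by more than 0.05, against 31.6% of all 969 retained intron events. The Snhg8 intron without a snoRNA, printed above, was kept at PSI values of 0.175 (Ag) and 0.267 (Ag+Costim), the same direction as the share of Snhg8-202. In Snhg12 both introns had the opposite direction, with 0.158 and 0.0553 for the intron of Snora44 and 0.212 and 0.151 for that of Snora61. The Snhg5 intron had high values in both groups, 0.798 and 0.817. Gas5 and Zfas1 have no retained intron event in the table, so their shares above rest on transcript counts alone. The other differences over 0.05 were at 3′ ends. In Snhg5 the longer end segment was at 0.821 in Ag and 0.920 in Ag+Costim and its 2-base extension at 0.179 and 0.0798, and in Snhg12 the upstream end segment was at 0.105 and 0.0152 and the last one at 0.895 and 0.985.

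**Figure D5:**
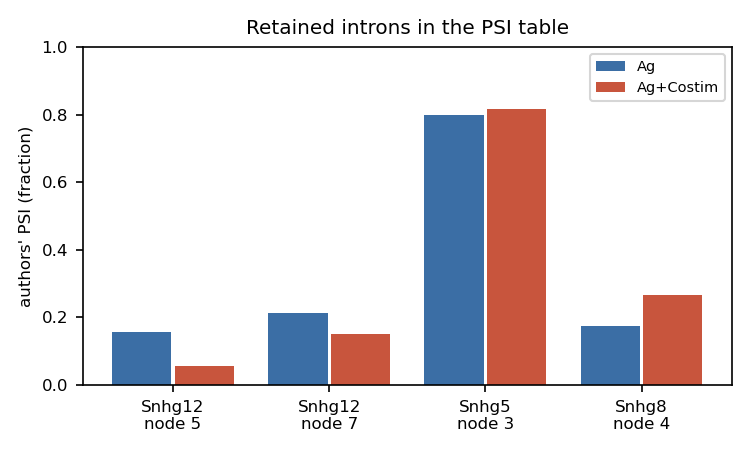
The authors' PSI (fraction, 1 value per group and no error) of the 4 retained introns of the hosts in the splicing table, with bars from 0 for Ag (blue) and Ag+Costim (red). Snhg8 is higher in Ag+Costim (0.175 and 0.267), both introns of Snhg12 are lower, and Snhg5 is close to 0.8 in both.

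The snoRNAs themselves were not measured by these libraries. All 33 have a row in the count table, and the highest value in any library was 0.35 CPM, for Snora73b. The libraries were made from poly(A) RNA, which mature snoRNAs lack, so nothing can be said here of snoRNA abundance.

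Messenger RNAs of proteins that bind and assemble snoRNAs had higher mean levels in Ag+Costim, although none passed the adjusted test. Of the genes of core snoRNP proteins, 8 of 8 had a positive log2 fold change with a median of 0.652, against 0.238 for all genes of at least 10 CPM. Nop58, a core C/D box protein, was at 99.2 ± 39.2 (Ag) and 238 ± 33.2 CPM (Ag+Costim), with no overlap (log2 fold change 1.26 ± 0.26, SE, BH-adjusted p = 0.141). Gar1 (0.77) and Dkc1 (0.67), the latter the pseudouridine synthase of H/ACA particles, and Fbl (0.68), the methyltransferase of C/D particles, overlapped between groups. Of the snoRNP assembly factors, 10 of 10 tested had a positive fold change (median 0.652), with Nolc1 at 0.85, Ruvbl2 at 0.73, Ruvbl1 at 0.70 and Shq1 at 0.66. With total-count scaling 7 of 8 and 10 of 10 remained positive (medians 0.481 and 0.468). A positive sign was common, with 6520 of 8626 genes of at least 10 CPM. In both lists edgeR called 0 genes and gave 2 and 4 at an unadjusted p under 0.05, all higher in Ag+Costim. Of the 8626 genes of at least 10 CPM, 1746 were higher at that p and 976 were higher without overlap. DESeq2 called 1 in each, beside 14.3% of all genes it tested, and the weighted voom fit called 8 of 8 and 10 of 10, all higher in Ag+Costim, beside 52.2%.

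Other hosts of snoRNAs had no common direction. Of 29 protein-coding hosts, 18 had a positive and 11 a negative log2 fold change (median 0.107), with Ncl (0.97), Rcc1 (0.96), Hspa9 (0.95) and Eif4a1 (0.72) as the largest, and edgeR called 0 of them (4 at an unadjusted p under 0.05, DESeq2 2). Nop56 and Dkc1 are also in the list of core snoRNP proteins, and Rcc1 overlaps Snhg3, so the lists are not independent. Of 12 other noncoding hosts, 8 were tested, 2 with a positive and 6 with a negative fold change (median -0.245, edgeR 0 calls, 2 at an unadjusted p under 0.05, DESeq2 2). Snhg20 was the only one of them at 10 CPM or more, with 17.8 ± 5.73 (Ag) and 16.1 ± 0.840 CPM (Ag+Costim). Among 12 factors of nonsense-mediated and 5′ to 3′ decay, the pathway that removes many spliced hosts, 9 had a positive and 3 a negative fold change (median 0.188, edgeR 0 calls, 4 at an unadjusted p under 0.05, DESeq2 2). With total-count scaling these lists had 13 of 29, 1 of 8 and 5 of 12 positive. The weighted voom fit called 16 protein-coding hosts higher and 1 lower, 2 other noncoding hosts higher and 2 lower, and 6 decay factors higher and 3 lower. Upf1, the central helicase of the pathway, was at 55.1 ± 9.38 (Ag) and 94.1 ± 19.3 CPM (Ag+Costim), with no overlap (log2 fold change 0.77 ± 0.18, SE, BH-adjusted p = 0.154). The groups did not overlap for Smg5 (0.76), which acts with Upf1, either, and did for Smg1 (-0.52), the kinase of Upf1. Levels higher in Ag+Costim without overlap were found in 976 of 8626 genes of at least 10 CPM.

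The mean profile of the 9 hosts over the 10 libraries, as log2 CPM minus each gene's own mean, ran from -0.423 in Ag 3, -0.327 in Ag 4 and -0.199 in Ag 1 to 0.173 in Ag 2 and 0.309 in Ag 5, and from 0.0113 to 0.203 in Ag+Costim. The libraries lowest in it were thus 3 Ag libraries and the highest was also an Ag library. Of 8618 other genes of at least 10 CPM, Nsa2 was the most like it, with a root-mean-square difference of 0.0494 log2 units, followed by Mrgbp (0.0534), Yipf5 (0.0656), Mettl3 (0.0711) and Kat8 (0.0724). The median over these genes was 0.342. The hosts did not all follow their own mean. Their differences from it ran from 0.0937 (Snhg15) to 0.473 (Snhg12), with Snhg3 (0.431) and Zfas1 (0.345) also above that median. Snhg12 was at 0.607 in Ag 3, where the mean profile was lowest. Likeness to the mean is thus not likeness to each host. The 10 values of a gene share the scaling of their libraries.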

How the data were processed

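Poly(A) RNA of sorted CD8+ T cells was sequenced from 15 labelled libraries (SMART-Seq v4, Nextera XT), of which 5 Ag and 5 Ag+Costim were used and Naive was not analysed here. Per the submitters' processing notes the authors used HISAT2 2.1.0, SAMtools 1.9 and StringTie 2.1.0 on mm10. The authors deposited estimated counts (expected counts) per gene and transcript, derived from read coverage, so totals are not read numbers. The deposited splicing table, made by the authors with Whippet, holds PSI as a fraction per group, assigned to Ag and Ag+Costim by the column letters. Its columns of PSI difference and probability are the authors' own comparison and were not used. The library kit does not mark strand, so opposite-strand overlaps (Gas5 with Zbtb37, Zfas1 with Znfx1, Snhg6 with Mcmdc2, Snhg3 with Gm17300) cannot be told apart. Znfx1 was at 43.9 (Ag) and 41.4 CPM (Ag+Costim), Gm17300 at 5.99 and 8.89 CPM, Zbtb37 at 7.55 and 5.67 CPM and Mcmdc2 at 1.61 and 0.165 CPM. All libraries ran on lane 4. Mean fragment sizes were 356 to 384 bases in Ag and 372 to 384 in Ag+Costim. Between 0.0458 and 0.308% of counts lay in entries without a gene identifier and were left out.

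Gene counts were tested with edgeR 4.0.16 in R 4.3.3 (filterByExpr, TMM, quasi-likelihood test, BH over all genes tested, threshold 0.05), with DESeq2 1.42.0 and limma 3.58.1 (voom) as alternatives. Transcript usage was tested with diffSpliceDGE on transcripts with at least 10 counts in 5 libraries. Shares and split CPM were compared by two-sided exact permutation of libraries between groups. Each standard error belongs to the fitted log2 fold change. The scripts were tested on simulated data. Precision was taken from the spread over libraries, since coverage-derived counts give no counting error. The 9 genes were all named, with up to 4 genes of at least 10 CPM per pathway list by fold change, the leading spliced and retained intron transcripts, and the 5 genes of most similar profile. Gas5-218, whose intron is printed, is not the leading retained intron transcript of Gas5 and was named outside this rule. Among the retained intron transcripts of Gas5 it had the largest difference in mean share. A gene of the decay list that this rule names is not reported here. Genes, lists and tests were chosen with earlier results of these data known.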

Additional observations from a re-analysis of the deposited data

Results flagged for a closer look

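The level of Snhg1 in Ag+Costim 4 was 23.5 CPM, set apart at the top of its group of 5. The retained intron share of the 9 hosts summed was 35.5% in Ag+Costim 3, the deepest library, set apart at the bottom of its group. In 30 groups of 5 examined, chance alone sets apart about 1 in 20, so these 2 are near that number. Without Ag+Costim 3 the difference in the summed share was 12.3 points in place of 10.5.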

How the results depend on the processing

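The number of hosts called by edgeR, 0, was also 0 with RLE, total-count and upper quartile scaling, without the filter on low counts, with DESeq2, by exact permutation, with each library left out in turn and with the replicate block. It was 6 with limma voom and library weights and 6 without Ag 2 and Ag 5. Genes with at least 10 CPM had a median log2 fold change of 0.238 with TMM, 0.118 with RLE, 0.0197 with upper quartile factors and 0.000376 with total counts, so fold changes are relative to the scaling. Directions turned for Gas5 (0.15 without the filter, 0.0039 without Ag 4, 0.030 without Ag 2 and Ag 5), Snhg8 (-0.022 with RLE, -0.14 with total counts, -0.12 with upper quartile, -0.019 with DESeq2, -0.022 without Ag 3), Snhg12 (0.32 without the filter, 0.016 without Ag 1, 0.068 without Ag 3) and Snhg15 (-0.073 with total counts, -0.044 with upper quartile). With single libraries left out, Gas5 ran from -0.25 to 0.0039, Snhg8 from -0.022 to 0.27 and Snhg12 from -0.17 to 0.068. The cause was not tested.

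The summed retained intron share differed by 10.5 points. It differed by 9.99 points by exon structure, 7.64 points per length, 7.95 points as the mean over the 5 hosts, 3.99 points as the mean over 7 hosts by exon structure, 2.75 points (p = 0.206 by exact permutation) as the mean over 7 hosts for transcripts that keep a snoRNA (both means over 7 hosts chosen after seeing the data), 12.2 points without Ag 2 and Ag 5, and between 9.57 and 12.3 points with each library left out (exact permutation p between 0.0159 and 0.0238). Snhg1 turned to -2.11 points by exon structure, -2.11 for transcripts that keep a snoRNA and -2.12 without Ag 2 and Ag 5, and ran from -2.07 to 4.50 points over the libraries left out. Snhg5 turned to -2.77 points for transcripts that keep a snoRNA and ran from -1.45 (without Ag 3) to 4.66 points. Same-numbered libraries did not deviate together (correlations 0.113, -0.0243, -0.0616, -0.0997 and 0.0323), so the numbers were not taken to pair samples. With the replicate number as a block, edgeR called 0 hosts, diffSpliceDGE 0, and the exact sign-flip permutation test of the summed share gave 10.5 points at p = 0.0625, the smallest its 32 assignments allow. A stricter probability threshold for PSI events was not run, since that column was not used.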
